A study of Homo sapiens with 4 samples.

Results

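The genes examined here encode the semaphorins, plexins, neuropilins, Eph receptors and ephrins. These families were chosen with earlier results of these data known, so their counts beside those of all genes are a description. Within the families, genes were taken from the gene table of MDA-MB-231 cells by the form of their symbols (SEMA, PLXN, NRP, EPHA, EPHB, EFNA and EFNB genes annotated as protein-coding). This gave 53 of the 35993 genes of the table, of which 19319 are protein-coding. A gene was taken as measured when its mean count over the 4 libraries was at least 10, which left 46 guidance genes among 16599 genes of all kinds. Measured were 17 of 20 semaphorins, 9 of 9 plexins, 2 of 2 neuropilins, 11 of 14 Eph receptors and 7 of 8 ephrins. The 7 others (SEMA5A, SEMA5B, SEMA6D, EPHA3, EPHA8, EPHB1 and EFNB3) had mean counts of 2.25 to 9.0 and enter only the sums of TPM over a family.

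Semaphorins are secreted or membrane-bound cues that act through plexins, whose cytoplasmic part switches off small GTPases of the R-Ras and Rap type. The secreted class 3 semaphorins mostly bind neuropilins, which pair with A-type plexins and also serve as co-receptors for VEGF. Ephrins are membrane-anchored ligands of the Eph receptor tyrosine kinases, the ephrin-A ligands through a lipid anchor and the ephrin-B ligands through a transmembrane segment, so that signals can pass into both touching cells. These families were first known from growing axons and vessels, and they also set repulsion, adhesion and migration of carcinoma cells.

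MDA-MB-231 is a human triple-negative breast cancer line with mesenchymal features. Cells received control siRNA (siControl) or CTGF siRNA (siCTGF), and each was left untreated or given kahweol, a diterpene of coffee beans, at 50 µM for 48 h in serum-free medium. Each of the 4 conditions was 1 library, so no condition has a replicate, and the knockdown rests on 1 CTGF siRNA against 1 control siRNA. Kahweol was dissolved in DMSO and no vehicle is named for untreated cells. Transfected cells were kept without serum before the treatment, and whether untreated cells stayed so is not given in the sources used here, so kahweol cannot be told apart from its vehicle or from serum. In these bulk libraries fewer cells with a transcript and less of it per cell cannot be told apart. The comparisons ask how the guidance genes, which bear on the migration that the study followed, differ with kahweol and with loss of CTGF.

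The libraries held 44781516 to 59129784 counts. Levels are given as CPM, counts scaled to library size with TMM factors of 0.939 to 1.06, to compare 1 gene between libraries, and as TPM, which are also scaled to transcript length, to compare genes. CTGF (symbol CCN2) had 159 CPM without and 186 with kahweol in siControl cells, and 63.6 without and 31.8 with kahweol in siCTGF cells. It was lower in both siCTGF libraries than in both siControl libraries, and kahweol went with a higher value in siControl and a lower one in siCTGF cells. The paper reports lower CTGF mRNA with kahweol by qRT-PCR in this cell line, unlike the siControl pair here. That assay came from repeated experiments, on cells not described as transfected. Its treatment time differs between the text and the figure legend of the paper. Lower CTGF protein with kahweol is also reported there, by Western blot. Of 5 mesenchymal marker genes, all were above 1 TPM, with sums of 2398 to 3287 TPM. Sums were 1.05 to 3.01 TPM for 5 endothelial markers (4 of them under 1 TPM on average), 3.68 to 5.69 for 5 markers of neurons and glia (SOX10 at 0 in all libraries) and 42.9 to 59.9 for 5 leukocyte markers, nearly all of it CD68. The 7 luminal markers summed to 796 to 959 TPM, with ESR1 and PGR, 2 of the 7, under 1 TPM. With kahweol, the share of counts in the 10 most abundant genes was 10.8% against 8.54% in siControl and 12.9% against 8.25% in siCTGF cells, and that of mitochondrial rRNA 4.33% against 3.94% and 6.01% against 3.11%, and their part in the kahweol results was not tested.

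The guidance genes spanned a wide range of levels. Mean TPM over the 4 libraries ran from 0.0408 (EPHA5) to 142 (EPHA2) with a median of 4.42, and 14 of the 46 genes reached 10 TPM while 12 stayed under 1 TPM. EPHA2, a receptor well known in basal-like breast cancer, had 161 TPM without and 165 with kahweol in siControl cells, and 134 without and 109 with kahweol in siCTGF cells. It alone made up 73.9%, 79.8%, 69.4% and 72.5% of the summed TPM of all Eph receptors in the 4 libraries in that order. EPHB4 and EPHB2 came next among the receptors, at 27.3 and 12.3 TPM on average. NRP1 followed EPHA2 in the whole set with 76.1 TPM without and 52.6 with kahweol in siControl cells, and 67.9 without and 41.1 with kahweol in siCTGF cells, and NRP2 averaged 7.61 TPM. Among plexins, the B-type PLXNB2 (38.5 TPM) led in every library, ahead of PLXNA1 (21.8 TPM) and PLXND1 (10.7 TPM), although the ranges of PLXNB2 and PLXNA1 over the libraries overlapped. PLXNA4 was lowest at 0.365 TPM. The leading semaphorins were the lipid-anchored SEMA7A (36.7 TPM) and the class 4 and class 3 genes SEMA4B (20.2 TPM), SEMA3C (19.6 TPM) and SEMA4C (19.0 TPM), whose ranges over the libraries overlapped, so these 3 cannot be ordered. Among ephrins, EFNB1 (13.9 TPM) and EFNB2 (13.4 TPM) led, followed by EFNA4 (9.31 TPM) and EFNA1 (8.26 TPM), and the libraries did not separate any neighbours in this order.

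**Figure D1:**
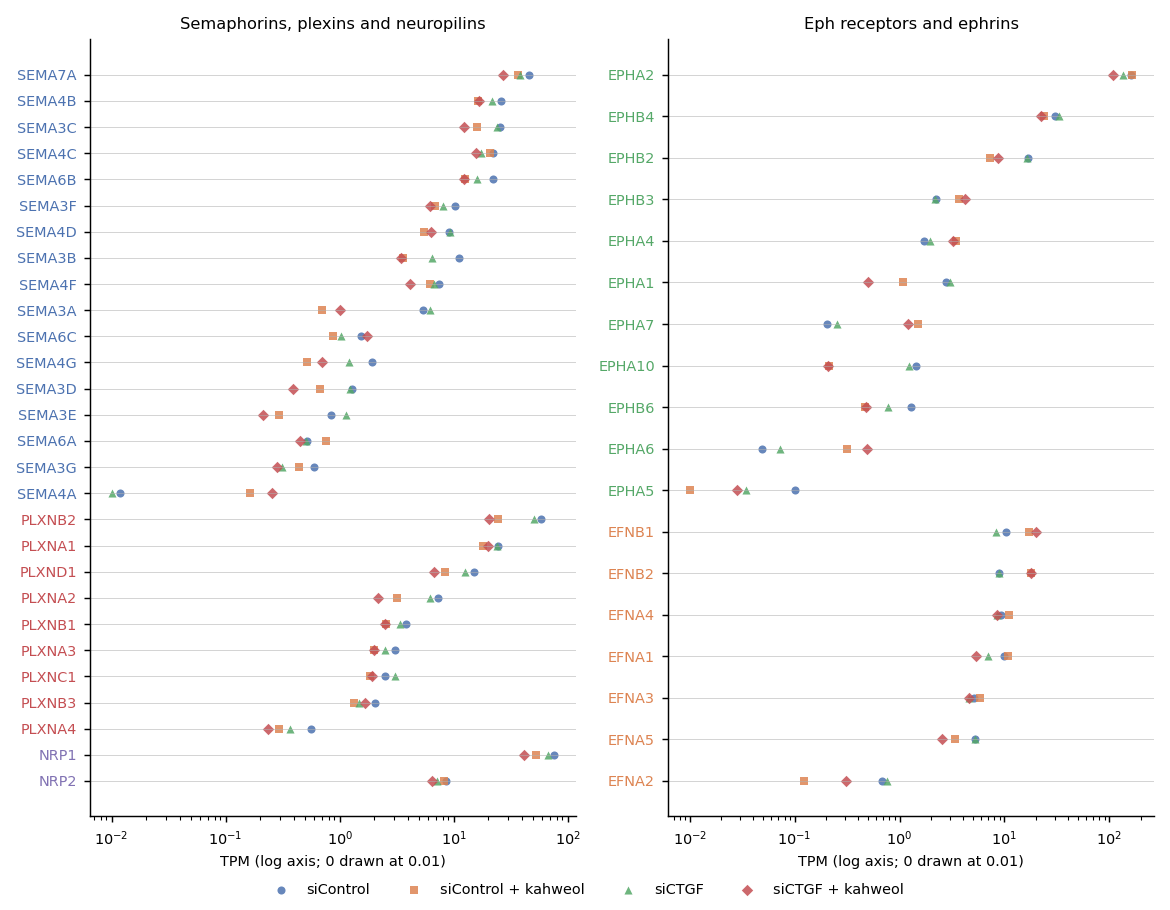
TPM (log axis) of the 46 measured guidance genes in the 4 libraries, 1 point per library, with genes ordered by family and mean level. EPHA2 stands highest at 109 to 165 TPM, and the points of SEMA3A, EFNB1, EFNB2 and EPHA7 separate by kahweol and not by siRNA.

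Promoters are shown for the genes with the strongest shift under kahweol in each direction that have a single start in the RefSeq promoter table, EFNB2 and EPHB3 (higher) and EPHA1 and PLXNB2 (lower), so that the sequence before each start can be set beside the values that follow. Each run holds the 250 bases before the start (RefSeq, GRCh38), 5′ to 3′ on the strand of the gene. Capitals mark every match, on either strand, to 5 motifs: GGAATG (TEAD), TGANTCA (AP-1), TGACNNNGC (antioxidant response element), CACGTG (E-box) and GGGCGG (GC box). TEAD is the partner of YAP at CTGF itself.
EFNB2 promoter, chr13:106535663-106535912, minus strand: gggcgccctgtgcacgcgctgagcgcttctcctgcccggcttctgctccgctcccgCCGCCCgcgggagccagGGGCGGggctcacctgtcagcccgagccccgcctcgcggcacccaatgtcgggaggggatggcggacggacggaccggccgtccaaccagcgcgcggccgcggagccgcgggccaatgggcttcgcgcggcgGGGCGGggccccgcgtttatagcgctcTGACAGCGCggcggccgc
EPHB3 promoter, chr3:184561535-184561784, plus strand: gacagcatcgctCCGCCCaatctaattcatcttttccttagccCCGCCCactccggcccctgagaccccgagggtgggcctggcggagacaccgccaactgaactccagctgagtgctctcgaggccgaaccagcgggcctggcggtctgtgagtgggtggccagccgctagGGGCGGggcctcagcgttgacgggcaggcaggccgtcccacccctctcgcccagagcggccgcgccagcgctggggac
EPHA1 promoter, chr7:143408857-143409106, minus strand: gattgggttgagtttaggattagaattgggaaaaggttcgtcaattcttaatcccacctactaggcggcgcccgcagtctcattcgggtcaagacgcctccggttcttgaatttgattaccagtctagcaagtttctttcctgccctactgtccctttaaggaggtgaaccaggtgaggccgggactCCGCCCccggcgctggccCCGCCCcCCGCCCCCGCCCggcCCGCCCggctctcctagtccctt
PLXNB2 promoter, chr22:50301670-50301919, minus strand: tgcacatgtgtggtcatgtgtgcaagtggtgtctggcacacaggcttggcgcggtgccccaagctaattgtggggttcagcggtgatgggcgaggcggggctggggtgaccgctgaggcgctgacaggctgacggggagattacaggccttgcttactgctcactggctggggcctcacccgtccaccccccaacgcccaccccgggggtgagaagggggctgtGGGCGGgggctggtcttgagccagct
The capitals are GC boxes, except for the TGACNNNGC match near the end of the EFNB2 run. GC boxes numbered 3, 3, 5 and 1 in the order printed, and some in EPHA1 abut. Of the 46 genes, 41 had an entry in the promoter table (EPHA10, NRP1, SEMA3A, SEMA6A and SEMA6B were not matched), and of these 38 held GGGCGG, 6 GGAATG, 5 TGACNNNGC, 2 CACGTG and 1 TGANTCA in at least 1 start. Over all 35116 windows of the table, the shares were 42.6%, 11.9%, 10.9%, 6.34% and 6.57% in the same order. Counts of genes and shares of windows are not the same unit, since a gene can have several starts. Median GC content was 65.8% over the 64 windows of guidance genes and 58.0% over all windows. A match is a description of letters and not a site of binding.

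Kahweol moved the guidance genes in both directions, with SEMA3A and 4 other class 3 semaphorins, PLXNB2, PLXNA2, PLXND1 and EPHB2 lower and both measured ephrin-B ligands, EPHA7, EPHA4 and EPHB3 higher. In an additive fit over all 4 libraries (edgeR's quasi-likelihood test, kahweol with siRNA as covariate, 2 libraries against 2, Benjamini-Hochberg adjusted p under 0.05 over 16599 genes), 20 of 46 guidance genes passed, 6 higher and 14 lower. The background was 46.5% of all genes, 22.9% higher and 23.6% lower, so the share of guidance genes called (43.5%) is near that of all genes. Scaled to total counts in place of TMM, which puts the median log2 fold change of all genes at -0.15 in both siRNA arms, 6 passed higher and 22 lower. Of all calls, 35.8% were then higher in place of 49.3%. With 1 residual degree of freedom, a kahweol effect that depends on the siRNA enters this fit as noise, and its p-values measure only the spread between these libraries. By fold change between single libraries, 10 genes were over 1.3 and 17 under 0.7 in siControl cells (background 28.1% and 26.3%, together 54.4%), with a median log2 fold change of -0.37 against -0.018 over all genes. In siCTGF cells, 8 were over and 13 under (background 28.4% and 24.2%, together 52.6%), with a median of -0.16. Past the same threshold in both were 6 genes upwards (background 20.7%) and 11 downwards (18.2%), and 1 gene, SEMA6C, was past opposite thresholds (2.3%).

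**Figure D2:**
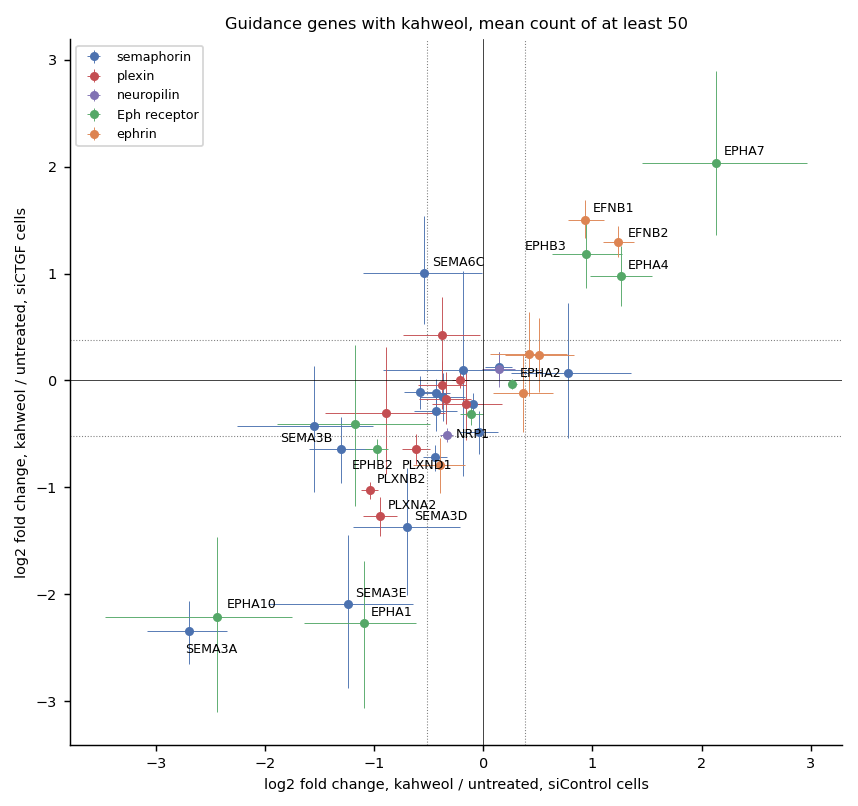
Log2 fold change with kahweol in siControl (x axis) and siCTGF cells (y axis) for guidance genes of 50 or more mean counts, with 95% counting intervals as bars and the 1.3 and 0.7 thresholds as dotted lines. EPHA7, EFNB1, EFNB2, EPHB3 and EPHA4 lie upper right, SEMA3A, EPHA10, SEMA3E and EPHA1 lower left, and SEMA6C lies in the upper left part.

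Of the 7 measured class 3 semaphorins, 5 fell with kahweol in the additive fit and none rose, beside 23.6% and 22.9% of all genes. SEMA3A (gene ID 10371, GRCh37 chromosome 7, 83585093 to 83824105, minus strand), the classical repellent of axons, moved most of all guidance genes that fell. It had 21.2 CPM without and 3.22 with kahweol in siControl cells, and 25.5 without and 5.00 with kahweol in siCTGF cells. Both kahweol libraries were far below both untreated ones, and the siCTGF library was the higher of each pair. The log2 fold change was -2.70 in siControl cells (counting interval -3.08 to -2.35) and -2.34 in siCTGF cells (-2.65 to -2.06), and the fit gave -2.53 ± 0.15 (SE; adjusted p = 5.98e-05) in edgeR's quasi-likelihood test, the source of all adjusted p-values that follow (Benjamini-Hochberg). SEMA3E, a ligand of PLXND1 that needs no neuropilin, had 2.96 CPM without and 1.23 with kahweol in siControl cells, and 4.16 without and 0.946 with kahweol in siCTGF cells. Its log2 fold changes with kahweol were -1.24 in siControl and -2.09 in siCTGF cells (adjusted p = 0.00721). SEMA3D had 3.90 CPM without and 2.38 with kahweol in siControl cells, and 3.90 without and 1.49 with kahweol in siCTGF cells. The log2 fold changes were -0.70 in siControl and -1.37 in siCTGF cells (adjusted p = 0.0289). In both genes each kahweol library lay below both untreated ones, at low levels, and SEMA3D did not pass with DESeq2 (adjusted p = 0.0592).

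SEMA3B, known as a candidate tumor suppressor at 3p21, had 15.1 CPM without and 6.09 with kahweol in siControl cells, and 9.57 without and 6.13 with kahweol in siCTGF cells. The log2 fold changes were -1.30 in siControl and -0.64 in siCTGF cells (adjusted p = 0.00555), and the siControl library without kahweol stood above the other 3. SEMA3C, the class 3 gene with the highest level here and one linked to invasion of breast cancer cells, had 61.6 CPM without and 45.4 with kahweol in siControl cells, and 60.7 without and 36.8 with kahweol in siCTGF cells. Its shift was smaller, at -0.44 in siControl and -0.72 in siCTGF cells on the log2 scale (adjusted p = 0.00303). SEMA3F, the neighbour of SEMA3B and a ligand of NRP2, did not pass (log2 fold changes of -0.37 in siControl and -0.15 in siCTGF cells, adjusted p = 0.134), nor did SEMA3G (-0.19 in siControl and 0.10 in siCTGF cells, adjusted p = 0.939). Summed over the class, the TPM of class 3 semaphorins were 55.3 in siControl, 28.7 in siControl with kahweol, 47.6 in siCTGF and 23.7 in siCTGF with kahweol. SEMA3C made up 46.5% to 56.3% of these sums. On the TPM scale the median of all genes itself shifted by -0.17 and -0.18 with kahweol (log2 of TPM + 1), which the sums include.

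Of the 10 measured semaphorins outside class 3, 1 rose and 1 fell, beside 22.9% and 23.6% of all genes. SEMA4D, the ligand of PLXNB1, had 20.1 CPM without and 14.8 with kahweol in siControl cells, and 21.3 without and 17.5 with kahweol in siCTGF cells, and its log2 fold changes of -0.44 in siControl and -0.28 in siCTGF cells passed the test by a small margin (adjusted p = 0.0352) and not with DESeq2 (adjusted p = 0.135). SEMA4A rose, yet from almost nothing: it had 2 counts without and 14 with kahweol in siControl cells, and 0 without and 24 with kahweol in siCTGF cells. With so few reads, and 0 in 1 untreated library, no fold is given (adjusted p = 0.0212). The abundant SEMA7A, SEMA4B, SEMA4C and SEMA6B did not pass, with log2 fold changes of -0.094 in siControl and -0.22 in siCTGF cells, -0.43 in siControl and -0.12 in siCTGF cells, 0.14 in siControl and 0.12 in siCTGF cells, and -0.58 in siControl and -0.11 in siCTGF cells in that order. Their adjusted p-values were 0.222, 0.0626, 0.262 and 0.0555. SEMA4G, at -1.55 in siControl and -0.43 in siCTGF cells, did not pass either (adjusted p = 0.0656). SEMA6C (gene ID 10500, GRCh37 chromosome 1, 151104161 to 151119107, minus strand), a class 6 transmembrane semaphorin, was the gene with opposite values. It had 2.91 CPM without and 1.99 with kahweol in siControl cells, and 2.03 without and 4.12 with kahweol in siCTGF cells. The highest library was siCTGF with kahweol and the other 3 lay closer together. The log2 fold change with kahweol was -0.54 in siControl cells (counting interval -1.11 to -0.0099) and 1.01 in siCTGF cells (0.53 to 1.54), and the average effect did not pass (adjusted p = 0.668). With trends in GC content and length taken out, the value in siControl cells was 0.082.

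Of the 9 plexins, 3 fell with kahweol and none rose, beside 23.6% and 22.9% of all genes. PLXNB2 (gene ID 23654, GRCh37 chromosome 22, 50713408 to 50746075, minus strand), the plexin with the highest level and the receptor of SEMA4C, had 182 CPM without and 88.5 with kahweol in siControl cells, and 163 without and 79.9 with kahweol in siCTGF cells. The kahweol libraries lay just under 0.5 of the untreated ones in both siRNA arms, with log2 fold changes of -1.04 in siControl cells (counting interval -1.12 to -0.97) and -1.03 in siCTGF cells (-1.11 to -0.95) and a fitted effect of -1.04 ± 0.081 (SE; adjusted p = 1.08e-04). With trends in GC content and length taken out, the PLXNB2 values were smaller, at -0.60 in siControl and -0.82 in siCTGF cells, with -0.71 in the fit. PLXNA2, a partner of neuropilins that also binds SEMA6A, had 40.4 CPM without and 21.0 with kahweol in siControl cells, and 36.2 without and 15.0 with kahweol in siCTGF cells. It gave -0.95 in siControl and -1.26 in siCTGF cells (adjusted p = 2.66e-04), and the siCTGF library with kahweol was the lowest of the 4. PLXND1, the receptor of SEMA3E, had 50.8 CPM without and 33.2 with kahweol in siControl cells, and 44.1 without and 28.2 with kahweol in siCTGF cells. Its log2 fold changes were -0.61 in siControl and -0.64 in siCTGF cells (adjusted p = 9.92e-04). Thus PLXND1 and its ligand SEMA3E were both lower in both kahweol libraries. The 6 others did not pass. Of these, PLXNA1 was at -0.21 in siControl and 0.008 in siCTGF cells, PLXNB1 at -0.34 in siControl and -0.17 in siCTGF cells and PLXNB3 at -0.38 in siControl and 0.43 in siCTGF cells. B-type plexins together summed to 64.5, 28.2, 55.3 and 24.8 TPM in siControl, siControl with kahweol, siCTGF and siCTGF with kahweol, and PLXNB2 accounted for most of each sum.

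NRP1, the co-receptor of SEMA3A and VEGF, fell modestly with kahweol. It had 209 CPM without and 166 with kahweol in siControl cells, and 192 without and 135 with kahweol in siCTGF cells. The shift on the log2 scale was -0.34 in siControl and -0.51 in siCTGF cells (adjusted p = 0.00416). Both kahweol values were under both untreated values. NRP2, which prefers SEMA3F and VEGFC, had 27.6 CPM without and 30.4 with kahweol in siControl cells, and 24.0 without and 25.9 with kahweol in siCTGF cells and did not pass (0.14 in siControl and 0.11 in siCTGF cells, adjusted p = 0.332). The directions of the neuropilins thus differed in sign, but NRP1 held 86.4% to 90.4% of their summed TPM.

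**Figure D3:**
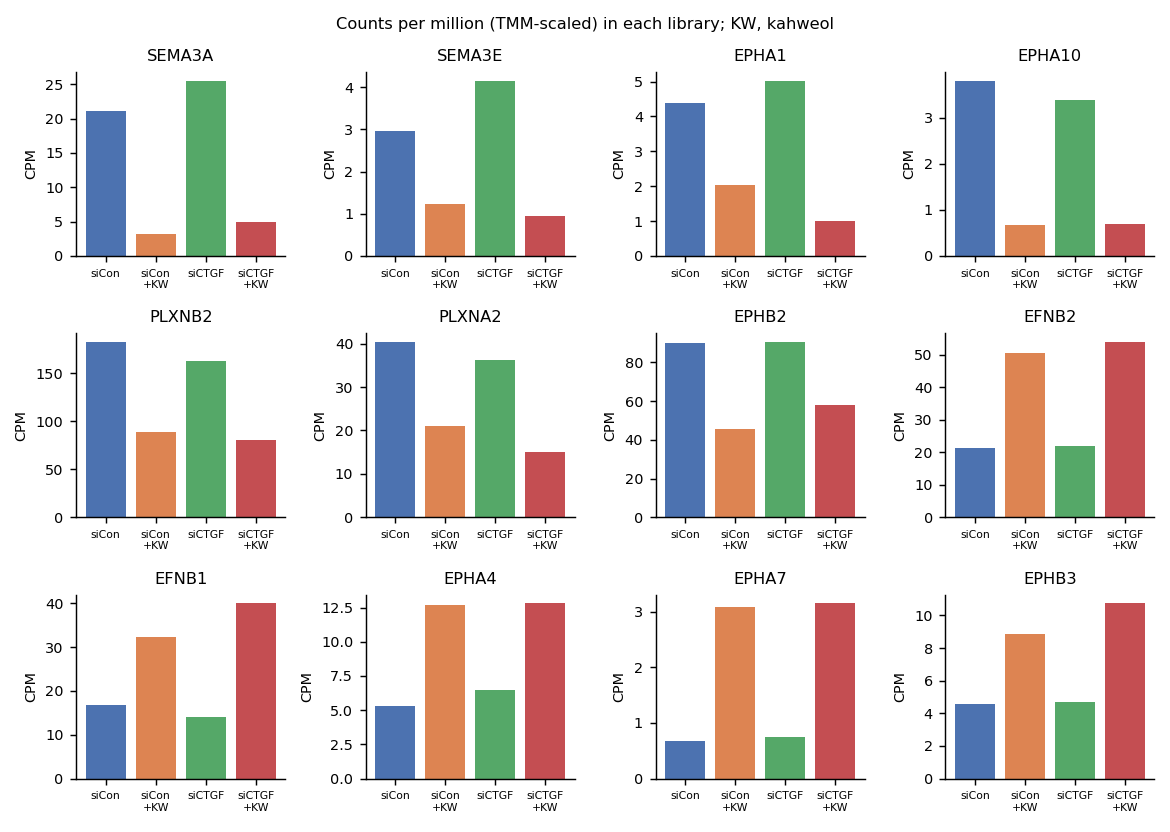
Values per library (CPM, own linear axis from 0 for each gene) of guidance genes that passed the additive kahweol fit, 1 bar per library. EFNB1, EFNB2, EPHA7, EPHA4 and EPHB3 are higher in both kahweol libraries, and SEMA3A, PLXNB2, PLXNA2 and EPHB2 are lower in both.

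Of 11 measured Eph receptors, 3 rose and 3 fell, shares near those of all genes (22.9% and 23.6%). EPHA7 showed the largest rise, to several times its low untreated level, with 0.672 CPM without and 3.08 with kahweol in siControl cells, and 0.739 without and 3.15 with kahweol in siCTGF cells. The log2 fold change was 2.13 in siControl cells (counting interval 1.46 to 2.97) and 2.04 in siCTGF cells (1.36 to 2.89), and the fit gave 2.14 ± 0.37 (SE; adjusted p = 0.00255). EPHA4, a receptor that binds both A- and B-type ephrins, had 5.30 CPM without and 12.7 with kahweol in siControl cells, and 6.50 without and 12.8 with kahweol in siCTGF cells, and its log2 fold changes were 1.26 in siControl and 0.97 in siCTGF cells (adjusted p = 0.00125). EPHB3, known from intestinal crypts, had 4.58 CPM without and 8.84 with kahweol in siControl cells, and 4.71 without and 10.7 with kahweol in siCTGF cells. It rose by 0.94 in siControl and 1.18 in siCTGF cells on the log2 scale (adjusted p = 0.00277), so that for these 3 receptors both kahweol libraries stood above both untreated ones.

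EPHB2, the third most abundant Eph receptor, fell. It had 90.1 CPM without and 45.8 with kahweol in siControl cells, and 90.5 without and 58.0 with kahweol in siCTGF cells. Its shift on the log2 scale was -0.98 in siControl cells (counting interval -1.08 to -0.87) and -0.64 in siCTGF cells (-0.74 to -0.54), with a fitted effect of -0.81 ± 0.11 (SE; adjusted p = 9.32e-04). EPHA10, a receptor whose kinase domain is thought to be inactive, had 3.81 CPM without and 0.671 with kahweol in siControl cells, and 3.38 without and 0.698 with kahweol in siCTGF cells. The counts behind these values were 238, 29, 183 and 31, and the log2 fold changes were -2.44 in siControl and -2.21 in siCTGF cells (adjusted p = 0.00128). EPHA1, the founding member of the family, had 4.40 CPM without and 2.04 with kahweol in siControl cells, and 5.03 without and 1.01 with kahweol in siCTGF cells, with -1.10 in siControl and -2.27 in siCTGF cells (adjusted p = 0.00727). The abundant EPHA2 did not pass: it had 307 CPM without and 369 with kahweol in siControl cells, and 266 without and 259.9 with kahweol in siCTGF cells, and its log2 fold changes were 0.27 in siControl and -0.034 in siCTGF cells (adjusted p = 0.309). With trends in GC content and length taken out of the fit, EPHA2 passed as higher, at 0.36 on the log2 scale (adjusted p = 0.00565). EPHB4, the receptor of EFNB2 in veins, did not pass either (-0.11 in siControl and -0.31 in siCTGF cells, adjusted p = 0.13). The kinase-inactive EPHB6 was under 0.7 in siControl cells and between the thresholds in siCTGF cells, at -1.18 in siControl and -0.41 in siCTGF cells on the log2 scale (adjusted p = 0.138).

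Both measured ephrin-B ligands rose with kahweol, a small set, beside 22.9% of all genes. EFNB2 (gene ID 1948, GRCh37 chromosome 13, 107142093 to 107188010, minus strand), the arterial ligand of EPHB4, had 21.4 CPM without and 50.6 with kahweol in siControl cells, and 22.0 without and 53.9 with kahweol in siCTGF cells. The kahweol values lay well over both untreated ones, and the siRNA arms were nearly alike, with log2 fold changes of 1.24 in siControl cells (counting interval 1.10 to 1.38) and 1.29 in siCTGF cells (1.15 to 1.44) and a fitted effect of 1.27 ± 0.091 (SE; adjusted p = 8.14e-05). EFNB1 (gene ID 1947, GRCh37 chromosome X, 68048840 to 68062007, plus strand) had 16.8 CPM without and 32.2 with kahweol in siControl cells, and 14.1 without and 40.0 with kahweol in siCTGF cells. Its log2 fold changes were 0.93 in siControl cells (counting interval 0.77 to 1.10) and 1.50 in siCTGF cells (1.33 to 1.68), with 1.22 ± 0.15 (SE; adjusted p = 4.93e-04) in the fit, and the siCTGF arm held both the lowest and the highest value. Of 5 measured ephrin-A ligands, 1 passed, beside 46.5% of all genes called in either direction. This was EFNA5, which fell, with 13.7 CPM without and 10.4 with kahweol in siControl cells, and 14.3 without and 8.29 with kahweol in siCTGF cells (log2 fold changes of -0.40 in siControl and -0.79 in siCTGF cells, adjusted p = 0.0164). EFNA1, EFNA3 and EFNA4, which lie with gaps of at most 58323 bases between them on chromosome 1, did not pass, with adjusted p-values of 0.638, 0.258 and 0.167. EFNA2 was under 0.7 in both arms, at 50 counts without and 8 with kahweol in siControl cells, and 51 without and 20 with kahweol in siCTGF cells, and did not pass (adjusted p = 0.0838).

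Ligand and receptor sums of the B class drew level under kahweol. The summed TPM of ephrin-B ligands were 19.4 in siControl, 35.0 in siControl with kahweol, 17.2 in siCTGF and 38.0 in siCTGF with kahweol, while those of EphB receptors were 50.5, 35.3, 52.4 and 35.6. The ratio of ligand to receptor transcripts was therefore 0.384 and 0.329 in untreated cells and 0.993 and 1.07 with kahweol. For the A class, the same ratio was 0.181, 0.181, 0.186 and 0.185 in the 4 libraries. These are ratios within a library, so that the scaling between libraries does not enter, and no test was made on them. Trends in GC content and length were not taken out of the sums, and their part in the ratios was not tested. EPHB4, which did not pass the kahweol fit, held 59.6% to 67.4% of the EphB sums. EPHA2 held 95.0% to 96.2% of the EphA sums, so the A ratio rests mostly on 1 receptor.

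Base composition was set beside these values, and its part in them was not tested. The longest transcripts of the 46 guidance genes had a median GC content of 58.5% against 48.5% over all measured genes with a value, and a median length of 5299 against 3412 nt. Over 20 GC bins of all genes, the median log2 fold change with kahweol went from 0.19 in the bin lowest in GC to -0.61 in the highest in siControl cells, and from 0.10 to -0.34 in siCTGF cells. With the bin medians of GC and then of length taken out, the median of the guidance genes was 0.030 in siControl and -0.0048 in siCTGF cells, in place of -0.37 and -0.16. The 6 genes that rose and the 14 that fell had nearly the same median GC content (53.6% and 53.3%), and the 26 others had 60.3%. Both sets were wide, from 37.9% to 62.2% for the genes that rose and from 34.9% to 64.8% for those that fell. With the bins removed in the fit, all 20 calls remained in the same direction and 24 genes passed, 10 higher and 14 lower. EFNA4, EPHA2, PLXNA1 and SEMA4C were gained, all as higher. Of the 11 genes under 0.7 in both arms, PLXND1 and SEMA3B no longer were.

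**Figure D4:**
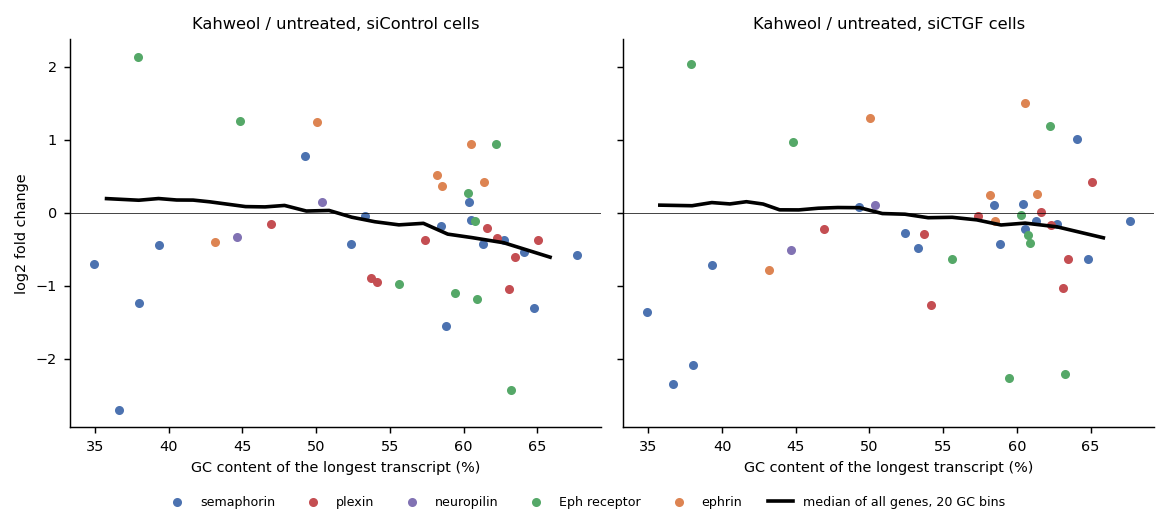
Log2 fold change with kahweol against the GC content (%) of the longest transcript, for guidance genes in siControl (left) and siCTGF cells (right), with the median of all genes in 20 GC bins as a line. The line goes from 0.19 to -0.61 on the left and from 0.10 to -0.34 on the right. Guidance genes lie on both sides of it, and the part of GC content was not tested.

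Genes that carry signals of these receptors were read from 5 lists, which were chosen with earlier results of these data known. Their counts beside the background are therefore a description and not a test. Trends in GC content and length were not taken out of the list values. Of 24 measured partners of semaphorin signalling, 15 fell and 2 rose with kahweol in the additive fit (for this and the lists that follow, 23.6% of all genes fell and 22.9% rose), with median log2 fold changes of -0.49 in siControl and -0.36 in siCTGF cells (all genes -0.018 and -0.0035). Among those that fell were the collapsin response mediators, cytosolic proteins that relay SEMA3A to microtubules: DPYSL2 had 168 CPM without and 74.9 with kahweol in siControl cells, and 137 without and 62.6 with kahweol in siCTGF cells, DPYSL3 gave log2 fold changes of -1.87 in siControl and -1.67 in siCTGF cells and DPYSL5 -1.47 in siControl and -1.42 in siCTGF cells, with adjusted p-values of 9.16e-05, 7.97e-04 and 0.014. MICAL3, a redox enzyme of actin, rose (0.61 in siControl and 0.56 in siCTGF cells, adjusted p = 0.00125), as did NRCAM, an adhesion partner of neuropilins (1.07 in siControl and 0.53 in siCTGF cells, adjusted p = 0.0276). The tetraspanin CD9 fell (-0.89 in siControl and -0.98 in siCTGF cells, adjusted p = 1.70e-04).

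Of 25 small GTPases and regulators downstream of plexins, 8 rose and 1 fell and 16 were not called, with medians of 0.063 and 0.099. RND1, a GTPase that binds the plexin cytoplasmic part, had 0.688 CPM without and 2.69 with kahweol in siControl cells, and 0.647 without and 2.88 with kahweol in siCTGF cells. Its log2 fold changes of 1.91 in siControl and 2.09 in siCTGF cells (adjusted p = 0.00377) came with those of its relative RND3 (0.93 in siControl and 1.00 in siCTGF cells, adjusted p = 1.36e-04). MRAS (1.27 in siControl and 1.61 in siCTGF cells) and RHOB (0.81 in siControl and 1.15 in siCTGF cells) rose too (adjusted p = 2.31e-04 and 3.81e-04). RRAS, the substrate of plexin GAP activity, was the gene that fell, with 12.3 CPM without and 4.54 with kahweol in siControl cells, and 12.3 without and 5.43 with kahweol in siCTGF cells (adjusted p = 7.27e-04).

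Among 36 measured partners of Eph signalling, 15 rose and 5 fell, and both medians were 0.25. ABL2, a kinase that acts on the cytoskeleton, gave 1.15 in siControl and 0.89 in siCTGF cells (adjusted p = 1.14e-04), and PIK3R1, a PI3K subunit, 1.16 in siControl and 1.25 in siCTGF cells (adjusted p = 9.66e-05). The exchange factors TIAM1 (-0.99 in siControl and -1.04 in siCTGF cells) and NGEF (-1.50 in siControl and -0.61 in siCTGF cells), which act on small GTPases, fell (adjusted p = 1.65e-04 and 0.0094), as did the PDZ protein PICK1 (-1.59 in siControl and -1.07 in siCTGF cells, adjusted p = 0.00125). In the list of neuropilins' VEGF partners, 1 of 11 measured genes rose, VEGFA (0.55 in siControl and 0.69 in siCTGF cells, adjusted p = 0.00153), and 3 fell, with medians of -0.36 and -0.24. Of 15 measured genes of other guidance families, 4 rose and 3 fell, with medians of -0.50 and 0.034. The netrin receptor UNC5B rose (0.92 in siControl and 1.00 in siCTGF cells, adjusted p = 0.00156), while UNC5A (-1.40 in siControl and -1.84 in siCTGF cells, adjusted p = 0.0168) and DRAXIN (-2.50 in siControl and -1.88 in siCTGF cells, adjusted p = 0.00373) fell. ROBO4, an endothelial Slit receptor family member, fell from a clear level, with 36.2 CPM without and 10.8 with kahweol in siControl cells, and 33.1 without and 12.7 with kahweol in siCTGF cells (adjusted p = 1.12e-04). Among 4 measured endothelial markers 1 fell, CDH5, with 110 counts without and 8 with kahweol in siControl cells, and 79 without and 9 with kahweol in siCTGF cells. The summed TPM of all 5 were 3.01 and 2.39 in the untreated and 1.46 and 1.05 in the kahweol libraries of siControl and siCTGF cells, none of the 5 was at 0 in all libraries, and their part in the result was not tested.

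No guidance gene passed the test of CTGF siRNA. In the additive fit, 0 of 46 genes passed in edgeR, against a background of 0.127% (21 of 16599 genes, 0.0663% higher and 0.0602% lower), and DESeq2 and limma called 0 as well. At an unadjusted p under 0.05 there were 8 of 46, beside 1640 of all 16599 genes, and the lowest adjusted p was 0.235. CTGF itself, at -1.32 in untreated cells and -2.55 with kahweol, had an adjusted p of 0.0589 in this fit. Without kahweol, 2 genes lay over 1.3 and 7 under 0.7 (background 9.63% and 8.99%, together 18.6%), with a median log2 fold change of -0.14 against -0.0071 over all genes. With kahweol, 7 lay over and 6 under (background 14.7% and 7.83%, together 22.5%), with a median of 0.010. Under 0.7 in both was 1 gene (background 2.24%), none was over 1.3 in both (3.25%), and 3 were past opposite thresholds (4.08%). The comparisons of siRNA and of kahweol use the same 4 libraries and are not independent.

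The gene lower in both was SEMA3G, a secreted semaphorin, at 91 counts without and 55 with kahweol in siControl cells, and 43 without and 38 with kahweol in siCTGF cells. The log2 fold changes with siCTGF were -0.84 in untreated cells (counting interval -1.66 to -0.094) and -0.55 with kahweol (-1.52 to 0.29, which spans 0), on few reads. The CPM of SEMA3G with and without kahweol were close within each siRNA. EPHA2 had the lowest unadjusted p of the guidance genes, with log2 fold changes of -0.21 in untreated cells and -0.51 with kahweol and a fitted effect of -0.36 ± 0.087 (SE; adjusted p = 0.235) in edgeR's quasi-likelihood test. EFNA1, its main ligand, was at -0.43 in untreated cells and -0.90 with kahweol, with -0.67 ± 0.21 (SE; adjusted p = 0.342), and had 7.41 CPM without and 9.52 with kahweol in siControl cells, and 5.49 without and 5.07 with kahweol in siCTGF cells. In both genes the siCTGF libraries were the lower ones within each treatment. SEMA4C (-0.28 in untreated cells and -0.30 with kahweol), SEMA7A (-0.21 in untreated cells and -0.33 with kahweol), PLXNA2 (-0.16 in untreated cells and -0.48 with kahweol), NRP1 (-0.13 in untreated cells and -0.30 with kahweol) and PLXND1 (-0.20 in untreated cells and -0.23 with kahweol) were the other genes with lower values at an unadjusted p under 0.05. SEMA3A was the 1 with higher values, at 0.27 in untreated cells and 0.63 with kahweol. SEMA4G was past opposite thresholds at a mean count over 50, at -0.66 in untreated cells and 0.47 with kahweol, the latter with a counting interval of -0.22 to 1.26 that spans 0. Its counts were 247, 57, 135 and 82, and it overlaps MRPL43 on the other strand, which had 2698 counts on average against 130 for SEMA4G. EPHA5 and SEMA4A were the others, at mean counts of 10.25 and 10.0. Of the partner lists, GRB10, an adaptor of receptor kinases, was over 1.3 in both (0.54 in untreated cells and 0.61 with kahweol). It did not pass, with 0.58 ± 0.092 (SE; adjusted p = 0.108), and no gene of the 5 lists was called.

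**Figure D5:**
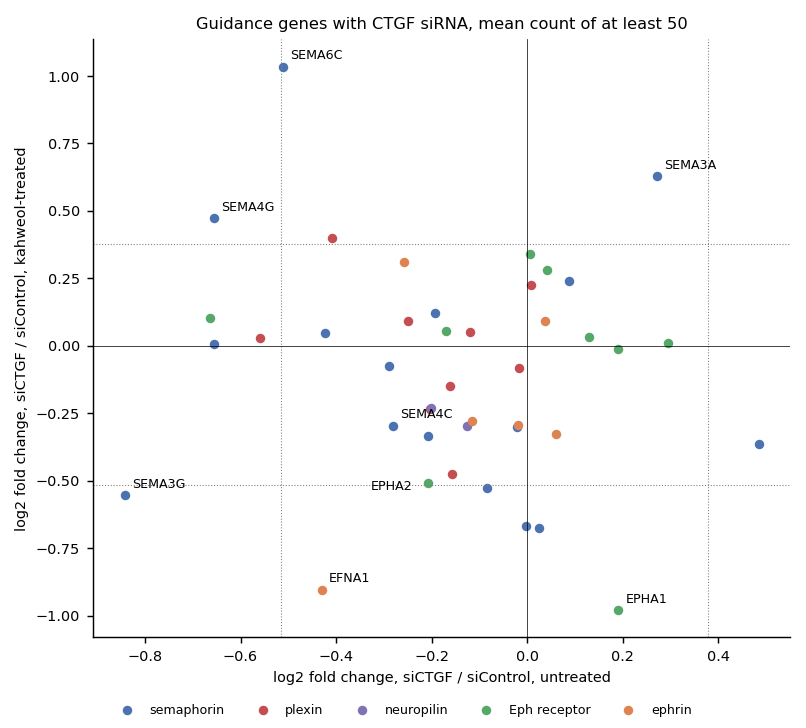
Log2 fold change with CTGF siRNA in untreated (x axis) and kahweol-treated cells (y axis) for guidance genes of 50 or more mean counts, with the 1.3 and 0.7 thresholds as dotted lines. SEMA3G lies under both thresholds, EFNA1 and EPHA2 lie lower left, and SEMA6C and SEMA4G lie upper left.

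Several of the genes named are neighbours, and their positions here are those of the table (GRCh37). SEMA3A, SEMA3E and SEMA3D, which all fell with kahweol, lie on chromosome 7, with gaps of 306638 bases between SEMA3A and SEMA3E and 800764 between SEMA3A and SEMA3D. SEMA3B and SEMA3F lie 78482 bases apart on chromosome 3, and only SEMA3B passed the test, a difference between them that was not itself tested. EPHA1 and EPHB6 lie 519375 bases apart on chromosome 7. On the opposite strand, EPHB4 overlaps SLC12A9 (3256 against 909 counts on average), PLXNC1 overlaps CEP83 (326 against 922), PLXNA3 overlaps LAGE3 (721 against 553) and EFNA4 overlaps DCST1-AS1 (308 against 129). EPHA5 overlaps the pseudogene RPL6P10 there, at 10.25 against 1169 counts on average. The library kit keeps the strand, but the strand setting of the counting is not given in the sources used here, so these values are uncertain.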

How the data were processed

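RNA-Seq was made from 4 libraries of MDA-MB-231 cells (rRNA-depleted, stranded, paired reads of 100 bp). Per the submitters' processing notes, FastQC 0.11.7, Trimmomatic 0.38, HISAT2 2.1.0, Bowtie2 2.3.4.1 and StringTie 2.1.3b were used with GRCh37.p13. The estimated counts per gene, as deposited by the authors, are whole numbers without normalization. FPKM and TPM were made by the authors with StringTie. FPKM and the coverage signal of the authors served only to check the counts, which come to 104 to 106 bases per count, so counting intervals take 2 reads as 1 fragment.

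TMM factors (edgeR 4.0.16, R 4.3.3) were computed on genes of 10 or more mean counts, and log2 CPM used a prior count of 2. Fold changes compare single libraries, with thresholds of 1.3 and 0.7. Counting intervals (95%, Clopper-Pearson) cover counting error only. Effects over all 4 libraries came from edgeR's quasi-likelihood test (SE taken as the effect over the root of F) with Benjamini-Hochberg correction. DESeq2 1.42.0, limma 3.58.1 (voom), other scalings, filters and prior counts were alternatives. The scripts were tested on simulated data. Figures used matplotlib 3.10.9 and sequences came from RefSeq (GRCh38). GC content and length came from GENCODE 29, joined by symbol (100% of guidance genes, 93.7% of all). The members and gene lists were chosen with earlier results of these data known. Values per library are given for genes past 1 threshold, or opposite ones, in both comparisons of an effect (mean count 50 or more), the 3 highest of each family, those called, and at most 4 genes of each list in each direction.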

Additional observations from a re-analysis of the deposited data

Results flagged for a closer look

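SEMA6C had log2 fold changes of opposite sign with kahweol, -0.54 in siControl and 1.01 in siCTGF cells, past opposite thresholds. Its counts were 182, 86, 110 and 183 in siControl, siControl with kahweol, siCTGF and siCTGF with kahweol, and the difference was not tested, since each condition has 1 library.

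SEMA4G had log2 fold changes of opposite sign with CTGF siRNA, -0.66 in untreated cells and 0.47 with kahweol. The counting interval was -1.11 to -0.22 for the first and -0.22 to 1.26, across 0, for the second. This difference was not tested either, and SEMA4G overlaps MRPL43 on the other strand.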

How the results depend on the processing

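No pairing by replicate was possible because each condition has 1 library and no replicate number. The siRNA arm is the covariate of the additive fit, and leaving out a library leaves no residual degrees of freedom in the additive fit, so this was not run. The 20 kahweol calls became 17 with DESeq2 (without SEMA3D, SEMA4A and SEMA4D), 22 with limma, 21 at a mean count of at least 50 (without SEMA4A), 19 without the siRNA covariate (without SEMA4D) and 24 with GC and length bins removed, an alternative chosen after seeing the data. With total-count scaling, which puts the median of all genes at -0.15 with kahweol in both siRNA arms, 28 were called, 6 higher and 22 lower. The share of higher calls over all genes went from 49.3% to 35.8%. CTGF siRNA gave 0 calls in each of these fits.

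On log2(TPM + 1), which pulls low genes towards 0, the genes over 1.3 with kahweol in siControl cells were 5 in place of 10. Those over and under with CTGF siRNA were 0 and 1 without kahweol (2 and 7) and 1 and 2 with it (7 and 6). At a mean count of at least 50, those over 1.3 with siCTGF were 1 without and 4 with kahweol, and with no filter 4 without kahweol. With GC and length bins removed, the median for kahweol in siControl cells was 0.030 in place of -0.37, and SEMA6C in siControl cells reversed from -0.54 to 0.082; the cause was not tested. DESeq2 size factors and a prior count of 0.5 left all 116 values compared within the limits set. Depth limits the genes with few reads (SEMA4A, EPHA5, EPHA6, EFNA2 and SEMA3G).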

Other observations

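EPHA6 had nearly level counts and unlike TPM. It had 24 counts without and 23 with kahweol in siControl cells, and 32 without and 28 with kahweol in siCTGF cells, while its TPM were 0.0487, 0.317, 0.0721 and 0.494 in the same order, so the TPM were higher in both kahweol libraries by a factor that the counts do not show. EPHA6 enters the EphA sums of TPM at these values, which are under 1 TPM in each library.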
